A study of Homo sapiens with 6 samples.

Results

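The 10 genes described here encode the lipid phosphate phosphatases PLPP1 to PLPP6 and the lysophosphatidic acid (LPA) receptors LPAR1, LPAR2, LPAR3 and LPAR6. They were taken by symbol from a table of 58174 genes, and each symbol matched 1 row. PLPP4 was put on the list because of its large rise in MIR21-KO cells, so its values are given as a description and no test is made of them. The other members came with the names of the 2 families.

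The study deleted MIR21, the gene of the microRNA miR-21, in A549, a human lung adenocarcinoma cell line, and sequenced polyadenylated RNA from 3 control and 3 knockout libraries. The Ctrl group was parental A549 with MIR21 intact, and the MIR21-KO group was A549 from which MIR21 had been cut out by Cas9 with paired guide RNAs, each line then being grown up from 1 sorted cell. Both groups were otherwise untreated and were harvested 48 h after seeding. The sources used here do not say from how many clones the MIR21-KO libraries were made, so a difference between a clone and the parental population and an effect of the deletion cannot be told apart. The study describes its experiments as biological triplicates or more, and its A549 RNA-seq values as coming from 3 independent samples. The labels do not say how these samples were kept apart. The p-values measure the spread between these libraries, which may leave out that between clones. Because RNA was taken from whole cultures, fewer cells expressing a gene and less RNA per cell cannot be told apart.

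LPA is a lipid signal made from membrane phospholipids in blood and tissues, and it acts through a group of G protein-coupled receptors that drive migration, contraction and proliferation. Lipid phosphate phosphatases are membrane enzymes whose active site faces the cell exterior or the lumen of organelles, and they remove the phosphate from LPA, phosphatidic acid, sphingosine 1-phosphate and related lipids. Neither enzyme activity nor LPA was measured in these data.

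Levels are given in FPKM, fragments scaled to a gene length and to a library size set by the authors. For some members this length exceeded what the annotated protein-coding transcripts hold. For PLPP2 it was 7059 bases, against 1866 distinct windows of 50 bases in those transcripts, and for PLPP3 5286 against 3243. Comparisons between genes, with the orders, sums and shares below, depend on these lengths. The ratio of a gene between groups does not. The libraries held 10631667 to 14345209 reads assigned to genes. The library sizes implied by the FPKM were 0.950 to 1.03 times these totals, so the values carry a further scaling factor per library, and 1 read on a transcript of 1 kb was worth 0.0731 to 0.0930 FPKM. Log2 fold changes are differences of log2(FPKM + 0.1), MIR21-KO minus Ctrl, and understate the change of genes at low levels. A gene was called when its limma FDR (Benjamini-Hochberg, two-sided) over the 16006 genes averaging 0.5 FPKM or more was under 0.01, the threshold of the study. At that threshold 16.0% of tested genes were called, 7.66% higher and 8.38% lower in MIR21-KO, and the median log2 fold change over all tested genes was -0.02. MIR21 itself had 0 reads in all 6 libraries, Ctrl included, so these libraries do not check the deletion. Selection of polyadenylated RNA does not retain the mature microRNA, and the cause of the 0 was not tested. Of the epithelial markers EPCAM, KRT8, KRT18, KRT19 and CDH1, all 5 were measured, and their summed level was 1194 to 1288 FPKM in Ctrl and 776 to 1106 FPKM in MIR21-KO, with CDH1 called lower. Their log2 fold changes were negative for 4 and positive for 1, KRT19 (0.29, limma FDR = 0.206). Of 5 fibroblast markers 3 passed the filter and 1, THY1, was called higher, from a mean of 2.28 to 7.15 FPKM. COL1A1 (3.41 to 3.91 FPKM) and LUM (2.11 to 1.88 FPKM) were not called. The 5 summed to 7.46 to 8.35 FPKM in Ctrl and 13.0 to 13.1 FPKM in MIR21-KO, with at most 3 reads of DCN in any library. All 4 endothelial markers had at most 3 reads in every library, and the 4 leukocyte markers summed to 0.438 to 0.495 FPKM in Ctrl and 0.312 to 0.969 FPKM in MIR21-KO, with CD3E at 0. Their part in the results below was not tested.

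The deleted microRNA recognizes messages through its seed, bases 2 to 8, and the sequences below show where that seed meets the members. The mature miR-21-5p (RefSeq, GRCh38.p14, chr17:59841273-59841294, plus strand) is printed with its seed in capitals, followed by the matching sites in the 3′ untranslated region of PLPP6 (GENCODE release 29, GRCh38, plus strand), with the matched letters in capitals.
miR-21-5p: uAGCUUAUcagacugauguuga
PLPP6, chr9:4664305-4664334: aatgcaagaacATAAGCTttctcgtatata
PLPP6, chr9:4663815-4663844: tgattttcttggTAAGCTtttttactttat
The first PLPP6 window holds the 7-letter match ATAAGCT at chr9:4664316-4664322, which pairs with the whole seed and begins at base 1053 of an untranslated region of 1995 bases. The second holds the 6-letter match TAAGCT at chr9:4663827-4663832, from base 564. PLPP6 was the only member of the 10 whose longest annotated 3′ untranslated region held a match on the transcript strand. Among tested protein-coding genes, 9.89% held the 7-letter match and 27.9% held a match of 6 letters or more. A match is a description of the sequence and not evidence that the site is used, and the absence of these letters says nothing else about the other members.

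PLPP4, on the plus strand of chromosome 10 (chr10:120456954-120589855), encodes a phosphatase that acts on diacylglycerol pyrophosphate, phosphatidic acid and LPA. Its level was 0.748, 0.677 and 0.410 FPKM in Ctrl replicates 1, 2 and 3. In MIR21-KO replicates 1, 2 and 3 it was 32.2, 34.3 and 29.5 FPKM. It was low in every Ctrl library and had the highest FPKM of the 6 phosphatases in every MIR21-KO library. The groups were far from overlapping. These levels rested on 17, 13 and 10 reads in Ctrl and on 782, 749 and 683 reads in MIR21-KO. PLPP2, scaled by a longer gene length, had 1030, 736 and 626 reads in MIR21-KO replicates 1, 2 and 3. The place of PLPP4 above PLPP2 thus depends on the lengths used. The mean went from 0.612 ± 0.179 to 32.0 ± 2.39 FPKM (SD, n = 3), a ratio of means of 52.3, and single libraries of the groups differed by 39.4 to 83.7 times. The log2 fold change of 5.53 was the 2nd largest rise of the 16006 genes tested, and it fell to 4.36 with a pseudocount of 1 FPKM. The transcript was thus detectable in parental cells at a level of 10 or more reads per library rather than absent.

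The PLPP4 promoter is shown because this gene went from the lowest to the highest FPKM of the family. RefSeq gives this gene a pair of start sites, and the window of 250 bases before to 50 after the upstream start (GRCh38.p14, chr10:120456704-120457003, plus strand) is printed with each CG dinucleotide in capitals.
PLPP4 promoter: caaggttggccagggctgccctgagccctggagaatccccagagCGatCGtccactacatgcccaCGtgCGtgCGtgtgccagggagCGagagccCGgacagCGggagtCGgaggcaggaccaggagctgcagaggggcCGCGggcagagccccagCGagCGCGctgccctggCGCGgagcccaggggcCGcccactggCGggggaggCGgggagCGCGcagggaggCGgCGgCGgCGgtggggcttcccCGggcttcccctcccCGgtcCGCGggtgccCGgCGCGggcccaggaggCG
This window held 33 CG dinucleotides, a count reached or passed by 17.2% of the 35116 RefSeq promoter windows of this length, whose median was 14. The window of the downstream start (chr10:120456977-120457276) held 42, reached or passed by 5.85%. By the same count PLPP3 had 11, reached or passed by 54.7% of windows, and LPAR6 had 3, reached or passed by 81.8%. Counts of at least that of the upstream PLPP4 window were also found in members that were not called or not detected. These were 39 in PLPP2, 37 in LPAR2, 33 in LPAR3 and 46 in a single window of LPAR1. The other LPAR1 windows held 2 to 27, and PLPP6 had 13. Promoters of 8 of the 10 members were in the RefSeq table, all but PLPP1 and PLPP5. No methylation or binding was measured here.

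The protein-coding genes around PLPP4 are given as a description of its position. Of 9 protein-coding genes within 1 Mb in the table, 8 were tested, 0 were called higher and 2 lower. Of all tested genes 7.66% were called higher and 8.38% lower. With only 8 genes these counts are descriptions and nothing is read from them. The nearest, WDR11, lies 261320 bases away and had a log2 fold change of 0.12 (7.31 ± 0.251 FPKM in Ctrl, 7.97 ± 1.01 FPKM after deletion, SD, n = 3, limma FDR = 0.439). MCMBP (log2 fold change -0.45, limma FDR = 0.00430) and SEC23IP (-0.64, limma FDR = 0.00641) fell, and GRK5, a G protein-coupled receptor kinase, had the largest positive difference, 0.62 (limma FDR = 0.0225). FGFR2, a fibroblast growth factor receptor, was below the filter, with 1 read in each Ctrl library and 3 to 8 reads in each MIR21-KO library.

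The 5 tested genes whose profile over the 6 libraries lay nearest to PLPP4, by Euclidean distance of log2(FPKM + 0.1) centred on each gene's mean, were MMP2, MEDAG, MYL9, SDS and MFAP2. The nearest by a wide margin was MMP2, a gelatinase that cleaves matrix proteins, at a distance of 0.570 against 1.48 for MEDAG. MMP2 went from 0.438 ± 0.0850 to 18.5 ± 0.623 FPKM (SD, n = 3), a log2 fold change of 5.13. MYL9, a myosin regulatory light chain, went from 0.721 ± 0.192 to 17.4 ± 2.21 FPKM (SD, n = 3) at a distance of 1.65, and MFAP2, a microfibril protein, from 0.627 ± 0.169 to 13.7 ± 1.90 FPKM (SD, n = 3) at 1.74. Since PLPP4 was chosen on this contrast, its nearest profiles share the same step between the groups by construction and no test is given.

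**Figure D1:**
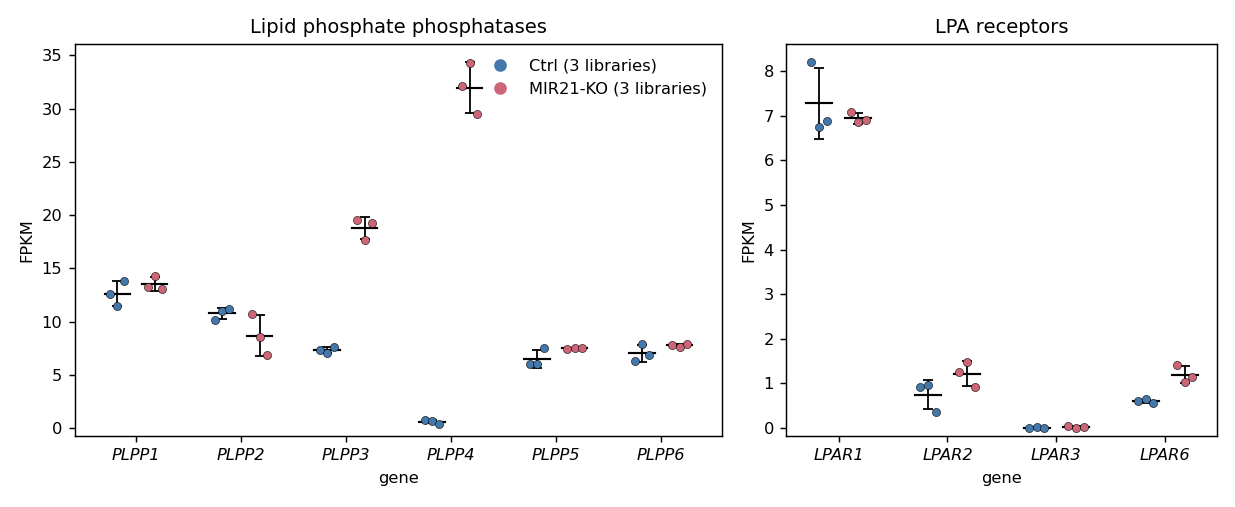
FPKM of each phosphatase (left) and LPA receptor (right) by gene, with 1 point per library, 3 Ctrl and 3 MIR21-KO libraries, and black lines for the mean and SD. PLPP4 and PLPP3 stand apart between the groups, PLPP4 from 0.612 to 32.0 FPKM and PLPP3 from 7.36 to 18.8 FPKM on average, while LPAR1 overlaps.

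Among the 8 other members tested, 1 was called higher in MIR21-KO, 0 lower and 7 neither, where 7.66% of all tested genes were called higher. The median log2 fold change of these 8 was 0.18, with 6 positive and 2 negative. The groups did not overlap for 2 of the 8, PLPP3 and LPAR6, both with MIR21-KO above, a pattern that 22.8% of all tested genes showed, while 25.2% had MIR21-KO below and 48.1% either. With so few members these shares are descriptions.

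The member called was PLPP3, an ecto-enzyme that degrades LPA and sphingosine 1-phosphate at the cell surface and is needed for vascular development in mice. The gene lies on the minus strand of chromosome 1 (chr1:56494747-56645301). It measured 7.37, 7.09 and 7.61 FPKM in Ctrl replicates 1, 2 and 3. In MIR21-KO replicates 1, 2 and 3 it measured 19.5, 17.6 and 19.2 FPKM. Libraries within each group lay close together and every MIR21-KO library was more than 2-fold above every Ctrl library. The mean rose from 7.36 ± 0.260 to 18.8 ± 1.01 FPKM (SD, n = 3), a log2 fold change of 1.34 ± 0.0763 (SE, 95% interval 1.16 to 1.52, limma FDR = 0.00011), on 403 to 550 reads per Ctrl library and 1141 to 1405 per MIR21-KO library. Exons of the unnamed gene AC119674.2 cover 16.3% of the positions of PLPP3 in windows of 50 bases on the same strand and it has no row in the table, so reads from these bases cannot be assigned to either with certainty.

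The other ecto-phosphatases, PLPP1 and PLPP2, had the highest FPKM of the family in parental cells. PLPP1 (chr5:55424854-55535050, minus strand) measured 12.6, 11.4 and 13.8 FPKM in Ctrl and 13.3, 14.3 and 13.0 FPKM in MIR21-KO. The groups overlapped, with a log2 fold change of 0.10 ± 0.0914 (SE, 95% interval -0.11 to 0.32, limma FDR = 0.419). Its exons share 24.3% of positions in windows of 50 bases with MTREX on the opposite strand, an RNA helicase that was itself lower in MIR21-KO (log2 fold change -0.70, limma FDR = 0.00244). Whether strand was used in counting is not given in the sources used here, so reads of this pair may be mixed.

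PLPP2 (chr19:281040-291504, minus strand) measured 10.1, 11.0 and 11.2 FPKM in Ctrl. In MIR21-KO it measured 10.7, 8.52 and 6.84 FPKM. The MIR21-KO libraries were spread, with replicate 1 inside the Ctrl range and the others below it. The log2 fold change was -0.33 ± 0.160 (SE, 95% interval -0.71 to 0.05, limma FDR = 0.165), so a fall of up to 0.71 on this scale was within the interval and no change was too.

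PLPP5 and PLPP6, the less studied members, did not pass the test. PLPP5, which like PLPP4 belongs to the branch that acts on diacylglycerol pyrophosphate, measured 6.05, 6.03 and 7.49 FPKM in Ctrl and 7.43, 7.53 and 7.48 FPKM in MIR21-KO. Ctrl replicate 3 lay within the MIR21-KO range and the other Ctrl libraries below it, with a log2 fold change of 0.20 ± 0.106 (SE, 95% interval -0.05 to 0.45, limma FDR = 0.193). PLPP6, a phosphatase of isoprenoid diphosphates such as presqualene diphosphate, carries the seed matches printed above. It measured 6.32, 7.86 and 6.83 FPKM in Ctrl and 7.80, 7.66 and 7.88 FPKM in MIR21-KO, where Ctrl replicate 2 lay among the MIR21-KO libraries. Its log2 fold change was 0.16 ± 0.0997 (SE, 95% interval -0.08 to 0.39, limma FDR = 0.277), and the interval holds 0 as well as a rise of 0.39. Of its positions in windows of 50 bases, 9.15% are shared with SPATA6L on the opposite strand.

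**Figure D2:**
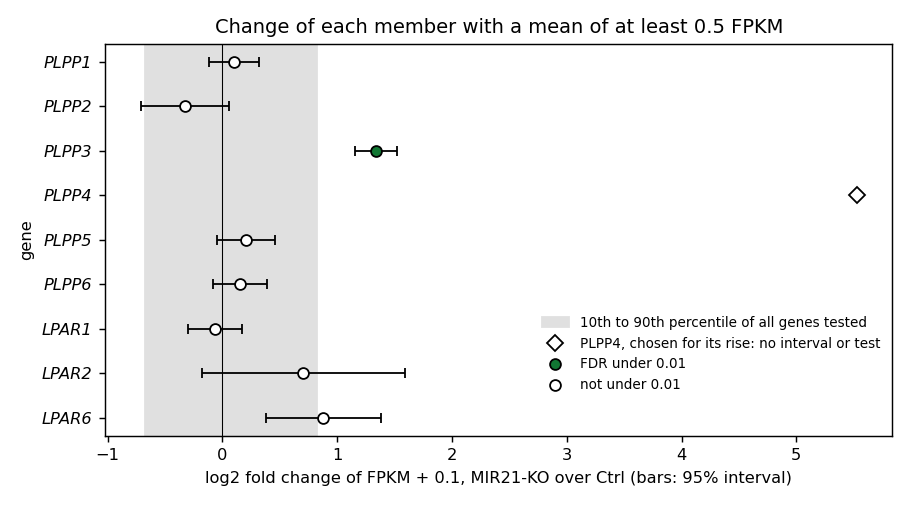
Log2 fold change of FPKM + 0.1 (x axis, MIR21-KO over Ctrl) of the 9 members above the filter, with 95% intervals from limma, filled where the FDR was under 0.01, and a grey band from the 10th to the 90th percentile of all genes tested, -0.67 to 0.82. PLPP3 lies outside the band at 1.34, LPAR6 just past its edge at 0.88, and PLPP4 at 5.53 has no interval because it was chosen for its rise.

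The summed phosphatase FPKM, on the gene lengths used, was about 2-fold in MIR21-KO what it was in Ctrl, and its makeup changed. The 6 genes summed to 44.9 ± 2.15 FPKM in Ctrl (SD, n = 3, lowest 43.2, highest 47.3) and to 88.2 ± 3.74 FPKM in MIR21-KO (SD, n = 3, lowest 84.0, highest 90.9). Without PLPP4 the sums were 44.3 ± 2.33 and 56.3 ± 2.22 FPKM (SD, n = 3). The PLPP4 share went from 1.38% ± 0.454 to 36.2% ± 1.67 (SD, n = 3). The mean share of PLPP3 went from 16.4% to 21.3%, while that of PLPP1 went from 28.1% to 15.3% and that of PLPP2 from 24.0% to 9.80%. All shares are of a sum that holds PLPP4, so each moves with it. The sum contains the gene chosen for its rise, so no test is given.

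In Ctrl the order of mean FPKM was PLPP1, PLPP2, PLPP3, PLPP6, PLPP5 and PLPP4. PLPP3 and PLPP6 overlapped in range, as did PLPP6 and PLPP5, and the other neighbours did not. In MIR21-KO the order was PLPP4, PLPP3, PLPP1, PLPP2, PLPP6 and PLPP5, where only PLPP2 and PLPP6 among neighbours overlapped. PLPP4, last of the family by FPKM in parental cells, was first by FPKM in MIR21-KO cells. These orders depend on the gene lengths used. PLPP2, with a length of 7059 bases, had 833 to 1080 reads per Ctrl library, against 248 to 380 for PLPP1.

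**Figure D3:**
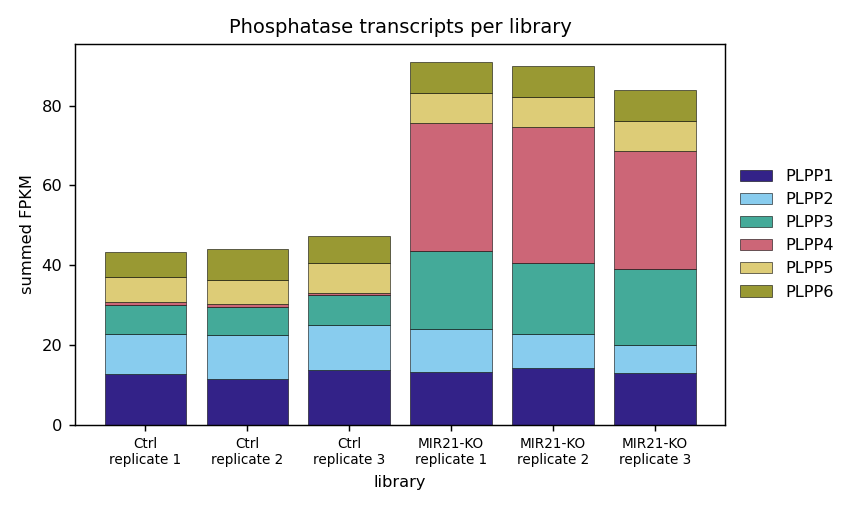
Stacked FPKM of the 6 phosphatases (y axis) in each of the 6 libraries (x axis), 1 colour per gene. The stacks reach 43.2 to 47.3 FPKM in Ctrl and 84.0 to 90.9 FPKM in MIR21-KO, where the PLPP4 segment makes up 36.2% on average.

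LPAR1 was the main LPA receptor transcript of these cells and did not pass the test. LPAR1 (chr9:110873263-111038458, minus strand), the receptor through which LPA drives migration of many cell types, measured 8.20, 6.75 and 6.89 FPKM in Ctrl and 7.08, 6.85 and 6.90 FPKM in MIR21-KO. Ctrl replicate 1 was the highest of the 6 libraries and the others lay together. The log2 fold change was -0.06 ± 0.0987 (SE, 95% interval -0.30 to 0.17, limma FDR = 0.667), and its sign changed with the processing.

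LPAR6 (chr13:48389567-48444704, minus strand), a receptor related to the purinergic family and known for its part in hair growth, was the only member receptor with groups apart. LPAR5, not a member and below the filter, also had every MIR21-KO library above every Ctrl library. It measured 0.596, 0.642 and 0.572 FPKM in Ctrl and 1.42, 1.03 and 1.15 FPKM in MIR21-KO. Every MIR21-KO library was above every Ctrl library, at 55 to 84 reads against 30 to 34. The log2 fold change was 0.88 ± 0.211 (SE, 95% interval 0.38 to 1.38), which missed the threshold at a limma FDR of 0.0201, and over the alternatives the FDR ran from 0.00677 to 0.0755. At an FDR under 0.05, which 32.0% of all tested genes reached, it was called higher, and so it was with voom on recovered reads (limma FDR = 0.00677), which called 21.8% of them. LPAR6 lies within RB1 on the other strand with no shared exon, and RB1, the retinoblastoma gene, went from 9.45 ± 1.30 to 6.61 ± 1.52 FPKM (SD, n = 3, log2 fold change -0.53, limma FDR = 0.0723).

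LPAR2 (chr19:19623668-19628930, minus strand), a receptor of the same family as LPAR1, measured 0.923, 0.967 and 0.368 FPKM in Ctrl and 1.26, 1.48 and 0.931 FPKM in MIR21-KO. One Ctrl library was well below the rest and MIR21-KO replicate 3 lay among the other Ctrl libraries. On 15 to 54 reads per library the log2 fold change was 0.70 ± 0.372 (SE, 95% interval -0.18 to 1.59, limma FDR = 0.195), so the interval holds 0 as well as a rise of 1.59. LPAR3 (chr1:84811602-84893213, minus strand), the third receptor of that family, had 0, 1 and 0 reads in Ctrl and 2, 0 and 1 in MIR21-KO. Both groups were under the limit that a count of 0 allows, 3 reads or 0.0619 to 0.0787 FPKM, so its expression was not detectable and no fold is given.

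The summed receptor level overlapped between the groups. The 4 receptors summed to 8.64 ± 0.969 FPKM in Ctrl (SD, n = 3, highest 9.72) and to 9.39 ± 0.396 FPKM after deletion (SD, n = 3, highest 9.79). The LPAR1 share went from 84.3% ± 3.75 to 74.0% ± 2.29 (SD, n = 3). The mean share of LPAR6 went from 7.03% to 12.8% and that of LPAR2 from 8.58% to 13.0%. The order was LPAR1, LPAR2, LPAR6 and LPAR3 in both groups, with LPAR2 and LPAR6 overlapping. Set beside each other on the gene lengths used, the phosphatases summed to several times the FPKM of the receptors in both groups.

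Around these genes, 5 lists of LPA pathway genes held 67 tested genes, of which 15 were called, 9 higher and 6 lower, where 16.0% of all tested genes were called, 7.66% higher and 8.38% lower. Nothing particular to these lists is read from that pooled count, in which the LPA-responsive genes gave 8 of the 15 calls. The remaining LPA receptors and the phosphatase relatives gave no called gene of 2 tested, with a median log2 fold change of 0.31. LPAR5 was below the filter with 5 to 10 reads in Ctrl libraries and 11 to 20 in MIR21-KO libraries, and LPAR4 had at most 1 read in any library. PLPPR2, a membrane protein of the phosphatase superfamily that lacks the catalytic residues, went from 4.80 ± 0.710 to 8.06 ± 1.29 FPKM (SD, n = 3, log2 fold change 0.73, limma FDR = 0.0141), with no overlap between the groups. It was called under 5 of the 19 alternatives, among them leaving out MIR21-KO replicate 3. Its limma FDR over the alternatives ran from 0.00464 to 0.0603.

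Of 29 genes of LPA and phosphatidic acid synthesis and turnover, 26 were tested, with 2 called higher and 1 lower. The shares over all tested genes were 7.66% higher and 8.38% lower. The median log2 fold change of the list was 0.06. ENPP2, which encodes autotaxin, the secreted enzyme that makes most extracellular LPA in blood, had at most 2 reads in any library and was not tested. LIPH, a phospholipase that makes LPA from phosphatidic acid at the cell surface, fell from 4.46 ± 0.574 to 1.73 ± 0.127 FPKM (SD, n = 3), a log2 fold change of -1.31 ± 0.134 (SE, limma FDR = 0.00086). GPAT3, an acyltransferase that makes LPA as a step of glycerolipid synthesis, rose from 10.4 ± 0.478 to 14.5 ± 0.415 FPKM (SD, n = 3, limma FDR = 0.00373). LPIN3, a lipin that converts phosphatidic acid to diacylglycerol, rose from 3.75 ± 0.653 to 6.33 ± 0.327 FPKM (SD, n = 3, limma FDR = 0.00725). The GPAT3 call was lost without any 1 Ctrl library or MIR21-KO replicate 2 (limma FDR up to 0.0242), and the LPIN3 call without any 1 library but Ctrl replicate 3 (up to 0.0379) or with no filter on low values (0.0157). AGPAT2, which converts LPA to phosphatidic acid and was the most abundant gene not called, had a log2 fold change of -0.29 (limma FDR = 0.254).

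Of 13 genes of sphingosine 1-phosphate, a lipid that PLPP3 also dephosphorylates, 9 were tested, with 2 called higher and 0 lower. The shares over all tested genes were 7.66% higher and 8.38% lower. The median log2 fold change of the list was 0.08. SPHK1, a kinase that makes sphingosine 1-phosphate, rose from 2.09 ± 0.177 to 6.76 ± 0.842 FPKM (SD, n = 3), a log2 fold change of 1.64 ± 0.130 (SE, limma FDR = 0.000339). SGPL1, the lyase that breaks it down irreversibly, rose from 20.0 ± 0.920 to 27.1 ± 1.51 FPKM (SD, n = 3, limma FDR = 0.00607), a call lost without any 1 Ctrl library or MIR21-KO replicate 2, with FDR of up to 0.0314, and also with no filter on low values (0.0126) or scaling by total reads (0.0144). SGPP1, an intracellular phosphatase of the same lipid and the most abundant gene not called, had a log2 fold change of -0.15 (limma FDR = 0.525). SPHK2, also a kinase that makes this lipid, was not called either (log2 fold change 0.07, limma FDR = 0.678). Its level was 4.75 ± 0.231 FPKM in Ctrl and 4.99 ± 0.548 FPKM in MIR21-KO (SD, n = 3).

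Of 20 genes that couple LPA receptors to the cell interior, 18 were tested, with 1 called higher and 1 lower. The shares over all tested genes were 7.66% higher and 8.38% lower. The median log2 fold change of the list was -0.08. RHOB, a small GTPase that regulates actin and endosomes, rose from 30.0 ± 1.58 to 230.7 ± 12.7 FPKM (SD, n = 3), a log2 fold change of 2.94 ± 0.0811 (SE, limma FDR = 1.01e-05). PLCE1, a phospholipase C activated by small GTPases, fell from 2.88 ± 0.278 to 1.16 ± 0.205 FPKM (SD, n = 3), a log2 fold change of -1.26 ± 0.167 (SE, limma FDR = 0.00233), a call lost without any 1 Ctrl library or MIR21-KO replicate 2, with FDR of up to 0.0154. RHOA, the GTPase through which these receptors drive contraction and the most abundant gene not called, had a log2 fold change of -0.22 (limma FDR = 0.0626).

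Genes known to respond to LPA moved in both directions. Of 13, 12 were tested and 8 were called, 4 higher and 4 lower. Of all tested genes 16.0% were called, 7.66% higher and 8.38% lower. The groups did not overlap for any of the 12, against 48.1% of all tested genes. The list was chosen with earlier results of these data known, so these counts are descriptions. The median log2 fold change was 0.52, and all of these genes also respond to other signals. IL6, a cytokine, rose from 1.33 ± 0.253 to 6.40 ± 0.529 FPKM (SD, n = 3, log2 fold change 2.19, limma FDR = 0.000237), and CCN2, a matricellular growth factor, from 9.69 ± 0.127 to 21.1 ± 1.19 FPKM (SD, n = 3, log2 fold change 1.12, limma FDR = 0.00017). AREG, a ligand of the EGF receptor, fell from 33.5 ± 3.78 to 1.63 ± 0.411 FPKM (SD, n = 3, log2 fold change -4.30, limma FDR = 4.19e-05). EDN1, the endothelin precursor, fell with a log2 fold change of -2.86 (limma FDR = 2.04e-05) and PTGS2, a cyclooxygenase, with -2.21 (limma FDR = 0.000291). CXCL8, a chemokine and the most abundant gene not called, had a log2 fold change of 0.46 (limma FDR = 0.0107). It was called under 7 of the 19 alternatives, among them leaving out MIR21-KO replicate 3. Its limma FDR over the alternatives ran from 0.000123 to 0.0475.

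**Figure D4:**
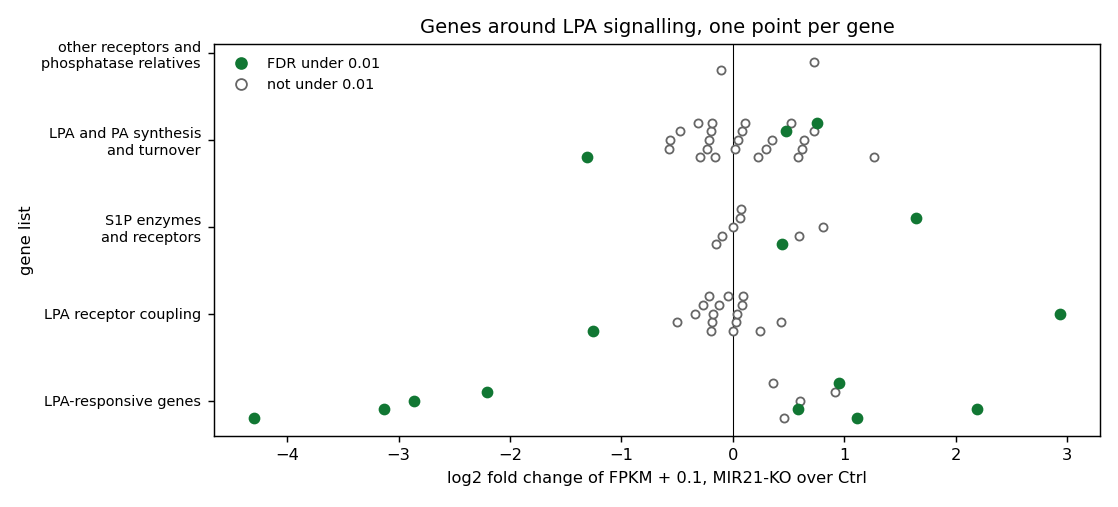
Log2 fold change of FPKM + 0.1 (x axis, MIR21-KO over Ctrl) of each tested gene in the 5 lists (y axis), filled where the limma FDR was under 0.01. The LPA-responsive genes are spread to both sides, from AREG at -4.30 to IL6 at 2.19. The synthesis genes run from LIPH at -1.31 to a highest value of 1.27, with a median of 0.06.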

How the data were processed

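Gene expression was measured by strand-specific sequencing of polyadenylated RNA on an Illumina HiSeq in 3 Ctrl and 3 MIR21-KO libraries of A549. The deposited table holds FPKM values that the authors made per gene and library. The submitters' processing notes name cutadapt 1.14, HISAT2 2.1.0, SAMtools 1.5, featureCounts 1.5.3, edgeR 3.18.1 and build hg38. The counting strand and annotation release are not given in the sources used here, and reads on overlapping genes may be split. The table's own fold change and p-value columns hold the authors' comparison and were not used.

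All FPKM values came out as whole reads within 0.01 read (100% of values), which gave the depth. The study's methods name TMM normalization before its FDR, and the library sizes implied by the FPKM differed from the summed reads (0.950 to 1.03 times). Of the gene identifiers, 99.4% matched GENCODE release 29, which supplied coordinates and exons. The FPKM were taken to log2(FPKM + 0.1), filtered at a mean of 0.5 FPKM and fitted with limma 3.58.1 (R 4.3.3, eBayes with trend and robust), two-sided, without a block. With 3 libraries a group an exact permutation test cannot go below p = 0.1, so none was run. Scripts were tested on simulated reads, with 200 genes of a mean of at least 50 reads changed 2-fold. The main test called 142 of them and made 10 false calls, and voom called 193 with 1 false call. A gene not called may therefore still have changed. The share of false calls of the main test in this simulation was above the 0.01 of the threshold. A call at that FDR may thus be less certain than the threshold states. Sums and shares are means of libraries.

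The alternatives were pseudocounts of 0.01 and 1, no filter, a mean of 2 FPKM or of 10 reads, total-read and median-ratio scaling, no trend or robust fit, voom on recovered reads, an FDR of 0.05, a replicate block, GC and length trends removed, and leaving out each library. The members and lists were chosen with earlier results of these data known. Named genes were all members, LPAR4, LPAR5 and ENPP2, up to 6 called genes by smallest p and the most abundant uncalled gene of each list, MIR21 and the 5 nearest profiles to PLPP4. FGFR2, WDR11, GRK5, MCMBP, SEC23IP, RB1, MTREX, CDH1, KRT19, THY1, COL1A1, LUM and DCN fall outside that rule and were named for their position or as markers, with their values seen. SPHK2 also falls outside it and was named beside SPHK1, with its values seen. Of the genes this rule names, 1 is not reported here. Protein sequences were not used here.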

Additional observations from a re-analysis of the deposited data

How the results depend on the processing

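PLPP3 stayed called under all 19 alternatives (log2 fold change 1.24 to 1.39, limma FDR 7.44e-06 to 0.00293), and PLPP4 kept its rise (4.36 to 5.73, without a test). Members called other than PLPP4 numbered 1, and 2 with a mean of at least 10 reads, without trend and robust fitting, with voom or at an FDR of 0.05, the second being LPAR6; without each replicate in turn the number was 1 to 1. LPAR1 turned from -0.06 to 0.040 with GC and length trends removed, alone or with the replicate block, and to 0.025 without Ctrl replicate 1, and ranged from -0.11 to 0.025 without 1 library.

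Over all genes 2568 were called. The count was 5114 at an FDR of 0.05, 3960 with GC and length trends removed, and 784 to 3418 without 1 library: 784 without MIR21-KO replicate 2, and 918, 933 and 889 without Ctrl replicates 1, 2 and 3. The replicate block gave 651 (379 higher, 272 lower). Deviations of same-numbered libraries from their group means correlated at -0.171, -0.018 and -0.017. With 3 libraries a group these values cannot show whether same-numbered libraries were prepared together, and the labels do not say.

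Called list genes numbered 15, and 25 with voom, 28 at an FDR of 0.05, 28 with GC and length trends removed, 8 with the replicate block and 9 to 18 without 1 library. With the block 5 of the calls named above were lost, LIPH (limma FDR 0.0102), GPAT3 (0.0331), LPIN3 (0.0299), SGPL1 (0.0362) and PLCE1 (0.0156). LPIN3 and SGPL1 were also lost with no filter on low values (0.0157 and 0.0126), SGPL1 with scaling by total reads (0.0144), LPIN3 with the block and GC and length trends removed together (0.0153), and GPAT3, LPIN3 and SGPL1 without trend and robust fitting (0.0105, 0.0133 and 0.0171). AGPAT2 was called lower with GC and length trends removed (log2 fold change -0.46). LPAR2 and LPAR6 gave no value at a mean of 2 FPKM. The causes were not tested. LPAR3 and LPAR4 were at or under the limit of 3 reads in every library.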

Other observations

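S1PR1, a receptor of sphingosine 1-phosphate, was named after its values were seen. It was below the filter, with 0 reads in the 3 Ctrl libraries and 9, 9 and 6 reads in the MIR21-KO libraries.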
